A study of Mus musculus with 24 samples.

Results

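The average effect of photobiomodulation (PBMT) on the transcriptome of mouse tibialis anterior (TA) muscle was measured across both exercise states, sedentary and fatigued. All 24 of the 24 deposited count files belong to it: 12 samples with PBM in their title and 12 without, compared with exercise state as an additive term so that the shift between states drops out. The question was which genes and functions moved the same way in both states. The mice were WT C57BL/6J males of 5 to 7 weeks, and polyA RNA of the TA of each mouse was sequenced as a library of its own. PBMT mice had the shaved and depilated lower limbs under LEDs of 830 nm at 25 mW/cm2 for 20 min under anesthesia, a fluence of 30 J/cm2. Control mice had the same shaving, depilation and 20 min of anesthesia without light. Each of the 4 groups, PBMT and control in either state, held 6 mice. Sedentary tissue was taken 24 h after the procedure, while fatigued mice ran to exhaustion on a treadmill from 24 h after it and were dissected after the run. Run times of single mice were not used here, so PBMT and run time cannot be told apart within the fatigued state. Exercise state and sequencing project cannot be told apart either, since the states were sequenced in separate projects.

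As background, near-infrared light is absorbed by several chromophores of the cell, among which cytochrome c oxidase, the last complex of the mitochondrial respiratory chain, is the one most often discussed. Muscle also responds to activity, hormones and time of day, through immediate early genes, clock genes and genes of fuel choice, many of which are switched within hours. An effect of light that does not depend on exercise would appear with the same sign in both states, and each state here had its own control mice.

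Sedentary mice had total counts of 43271093 to 52775844 and fatigued mice of 53122528 to 68726155. Over both states the totals of PBMT and control mice did not differ beyond chance (exact permutation test within state, two-sided p = 0.449), although within the sedentary state they were larger with PBMT (exact permutation p = 0.00433). Totals were scaled by TMM, and levels are in CPM, which relates each count to this scaled total. For 14531 of the 15108 tested genes (96.2%) the variance between mice of a group was more than 2 times what counting error alone gives. For these genes the spread between libraries limited the precision more than depth did. Differences between mice and between library preparations cannot be told apart in this spread. The TA is a fast muscle, and 13 of 13 fast fiber markers passed the filter on low counts. Led by Myh4, they summed to 167174 ± 27578 CPM (SD, n = 6) in sedentary controls and 217056 ± 17869 CPM (SD, n = 6) in fatigued controls. The 10 slow fiber markers summed to 190.5 ± 27.0 and 188 ± 42.1 CPM (SD, n = 6 each), with Myoz2 the most abundant.

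A pair of libraries stood apart from the rest. By the root mean square difference from the group mean in log2 CPM, sedentary control 4 lay at 0.501 and fatigued PBMT 5 at 0.509, against 0.304 to 0.407 for the other 22 mice. In sedentary control 4, mitochondrially encoded genes took 3.25% of the counts, where the other sedentary controls had 15.5% to 17.0%. In fatigued PBMT 5, Bglap lay above the rest of its group by 5.48, Cxcl1 by 4.73, Sp7 by 4.51, Myh7 by 4.30 and Mki67 by 3.68 on the log2 scale. These genes were chosen after their values were seen. Results are given with all 24 mice, and many also with these 2 mice left out.

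No gene passed the adjustment for the average effect in edgeR, where 15108 of the 55487 genes listed passed the filter on low counts, and 0 of them (0%) had an adjusted p under 0.05, the smallest being 0.649 for Txnip and Bhlhe40. At an unadjusted p under 0.05, 280 genes (1.85%) were higher with PBMT and 269 (1.78%) were lower, 549 in all, where 755.4 would be expected if no gene differed. DESeq2 also called 0 genes, with 394 higher and 395 lower at an unadjusted p under 0.05, and the exact permutation test called 0, with 589 genes at an unadjusted p under 0.05. The limma voom fit with quality weights called 2 genes, Txnip (adjusted p = 0.00252) and Zhx2 (adjusted p = 0.0291). Over the 15 alternatives, which do not count the fits without a single mouse, the adjusted p ran from 0.00252 to 0.995 for Txnip. For Zhx2 it ran from 0.0291 to 0.9998. With both stand-apart mice left out, edgeR called 0 genes, and 373 were higher and 412 lower at an unadjusted p under 0.05. Leaving out fatigued PBMT 1 gave 2 calls, Txnip and Bhlhe40 (adjusted p = 0.0297 for each), and leaving out sedentary control 4 gave 1, Zhx2 (adjusted p = 0.0387).

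Within states the counts were unequal. In sedentary mice 470 genes (3.11%) were higher and 660 (4.37%) lower at an unadjusted edgeR p under 0.05, and in fatigued mice 169 (1.12%) were higher and 77 (0.51%) lower. After adjustment 4 genes passed in sedentary mice: Ccn1 (edgeR adjusted p = 0.000347), Egr1 (0.0204) and Cited2 (0.0213) were higher and Nfil3 (0.000693) was lower with PBMT. In fatigued mice 0 genes passed. The estimates of the 2 states, which share no mouse, were above 0 in both for 3633 genes (24%) and under 0 in both for 3641 (24.1%), together 48.1% of the genes tested. Across genes, which are not independent replicates, the Pearson correlation of the sedentary with the fatigued log2 fold change was -0.0073 and the Spearman correlation -0.045. With both stand-apart mice left out these were 0.037 and 0.057, and 53.1% of genes had the same sign. Among the 100 genes with the smallest p in sedentary mice, 49 had the same sign in fatigued mice; their median size was 0.61 on the log2 scale in sedentary mice, and their median fatigued value in the same direction was -0.0055. Among the 100 with the smallest p in fatigued mice, 47 had the same sign in sedentary mice, with medians of 0.49 and -0.028. The genes with the smallest p in each state thus had a median near 0 in the other.

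**Figure D1:**
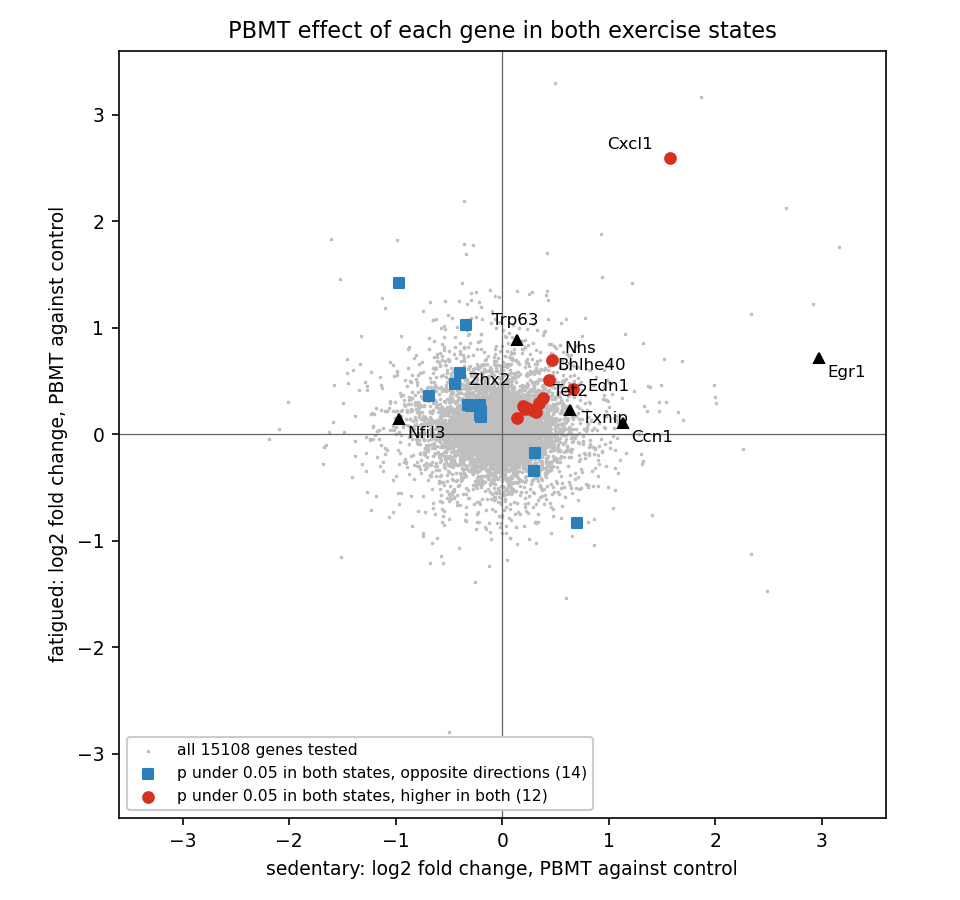
Log2 fold change of PBMT against control in sedentary mice (horizontal axis) and in fatigued mice (vertical axis), 6 against 6 mice in each state, for the 15108 genes tested. Red circles are the 12 genes with an unadjusted edgeR p under 0.05 and a higher level in both states, blue squares the 14 with opposite directions, and black triangles genes named in the text; the lower left corner, lower in both states, holds 0 such genes.

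Few genes moved the same way in both states. By the rule of an unadjusted edgeR p under 0.05 in each state with the same sign, 12 genes (0.0794%) were higher in both, 0 (0%) were lower in both, and 14 (0.0927%) had opposite signs. The 12 were Bhlhe40, Edn1, St3gal1, Pim1, Nhs, Leng8, Slc24a3, Atxn2l, Tet2, Rad52, Zhx2 and Cxcl1, of which Zhx2 and Cxcl1 were named after their values were seen. By DESeq2 within each state 14 genes met the rule, by limma voom 28 were higher and 7 lower, and at an unadjusted p under 0.01 in each state 0 genes met it. With both stand-apart mice left out, 16 genes were higher and 4 lower in both; of the 12, Bhlhe40, Edn1, Pim1, Rad52, Atxn2l, Tet2 and Zhx2 were among them and St3gal1, Nhs, Leng8, Slc24a3 and Cxcl1 were not. The genes then added, chosen here after their values were seen, included the phosphatases Dusp2 and Dusp4, Pfkfb3 and the kinase genes Sik3 and Dmpk on the higher side, and Timd4 and Ptk2b on the lower side. When each of the 24 mice was left out in turn, Bhlhe40 met the rule in 24 fits, St3gal1 in 21, Edn1 in 20, Atxn2l in 18, Pim1 and Leng8 in 17, Tet2 in 16, Slc24a3 and Zhx2 in 15, and Cxcl1, Rad52 and Nhs in 13. No gene had PBMT and control mice apart without overlap in both states, in either direction. Of the 15108 genes tested, 70 were so separated in sedentary and 4 in fatigued mice. Under random labels (exact permutation), a gene is so separated within 1 state, in either direction, with a probability of 0.00216. The counts were not tested against this, and separation of a single gene is thus not rare over this many genes.

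Bhlhe40 (ENSMUSG00000030103, chr6:108660629-108666925, plus strand; all coordinates are GRCm38, GENCODE M21) encodes a transcriptional repressor that acts in the circadian clock and responds to hypoxia and exercise. In sedentary mice its level was 88.7 to 119.9 CPM (median 107) in controls and 120.3 to 159 CPM (median 144) with PBMT. In fatigued mice it was 51.9 to 99.8 CPM (median 64.9) in controls and 60.3 to 126 CPM (median 98.2) with PBMT. Every sedentary PBMT mouse lay above the highest sedentary control, and 3 of 6 fatigued PBMT mice lay above the highest fatigued control. The average was higher by 1.39-fold (edgeR log2 fold change 0.47, standard error 0.10, adjusted p = 0.649, and exact permutation within state p = 0.000609), and the states gave 0.43 in sedentary and 0.51 in fatigued mice. Permutation p-values for single genes are two-sided and, unless stated, unadjusted. Adjusted over all genes tested, the smallest exact permutation p was 0.995. Many of the genes were named for a small p in these same mice, so for them a small permutation p is no separate support.

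Edn1 (ENSMUSG00000021367, chr13:42301476-42307990, plus strand) encodes endothelin-1, a peptide that constricts blood vessels. Sedentary levels were 0.571 to 1.58 CPM (median 0.881) in controls and 1.08 to 1.87 CPM (median 1.49) with PBMT, and fatigued levels were 1.94 to 3.36 CPM (median 3.08) and 2.38 to 4.53 CPM (median 4.31). The groups overlapped in both states, with 3 of 6 sedentary and 5 of 6 fatigued PBMT mice above every control of their state. Over both states the difference did not pass the adjustment (edgeR log2 fold change 0.54, standard error 0.14, adjusted p = 0.988, and exact permutation within state p = 0.00170). Tet2 (ENSMUSG00000040943, chr3:133463679-133545139, minus strand), which encodes an enzyme that oxidises methylcytosine in DNA, had sedentary levels of 7.80 to 11.4 CPM (median 9.63) in controls and 11.7 to 13.5 CPM (median 12.3) with PBMT. Its fatigued levels were 8.85 to 17.2 CPM (median 11.8) in controls and 11.7 to 19.9 CPM (median 14.7) with PBMT. The sedentary groups did not overlap, whereas 2 of 6 fatigued PBMT mice exceeded the highest control (edgeR log2 fold change 0.36, standard error 0.090, adjusted p = 0.988, and exact permutation within state p = 0.000918). Pim1 (ENSMUSG00000024014, chr17:29490753-29496112, plus strand) encodes a serine/threonine kinase induced by cytokines. It had 5.20 to 6.63 CPM (median 5.87) and 5.82 to 9.33 CPM (median 7.26) in sedentary controls and PBMT mice, and 11.9 to 15.2 CPM (median 13.1) and 13.2 to 19.0 CPM (median 15.2) in the fatigued groups. Here too the groups overlapped, with 4 of 6 sedentary and 3 of 6 fatigued PBMT mice above all controls (edgeR log2 fold change 0.26, standard error 0.072, adjusted p = 0.988, and exact permutation within state p = 0.00183).

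Zhx2, a gene of a zinc finger and homeobox repressor, had 23.7 to 34.4 CPM (median 25.8) in sedentary controls and 27.5 to 35.0 CPM (median 30.4) with PBMT, then 34.0 to 39.4 CPM (median 36.0) in fatigued controls and 38.4 to 48.5 CPM (median 43.8) with PBMT. The highest sedentary control was the stand-apart mouse 4, and 5 of 6 fatigued PBMT mice lay above every fatigued control. Its average effect was small (edgeR log2 fold change 0.23, standard error 0.056, adjusted p = 0.988, and exact permutation within state p = 0.000698), and 0.26 with an edgeR adjusted p of 0.0895 with both stand-apart mice left out. Atxn2l, which encodes a protein of stress granules, had 5 of 6 PBMT mice above every control in each state, at an average log2 fold change of 0.14 (exact permutation p = 8.67e-05, adjusted over all genes p = 0.995). St3gal1, a sialyltransferase gene, Slc24a3, a gene of a sodium, potassium and calcium exchanger, and Rad52, a gene of DNA recombination, had average log2 fold changes of 0.23, 0.32 and 0.25. Leng8 and Nhs had 0.24 and 0.58. Cxcl1, a chemokine gene that attracts neutrophils, rested on the stand-apart mouse 5 of the fatigued PBMT group: it lay at 6.45 CPM where the other 5 had 0.039 to 0.44 CPM. The average log2 fold change of Cxcl1 was 2.23 with all mice and 0.74 with both stand-apart mice left out.

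**Figure D2:**
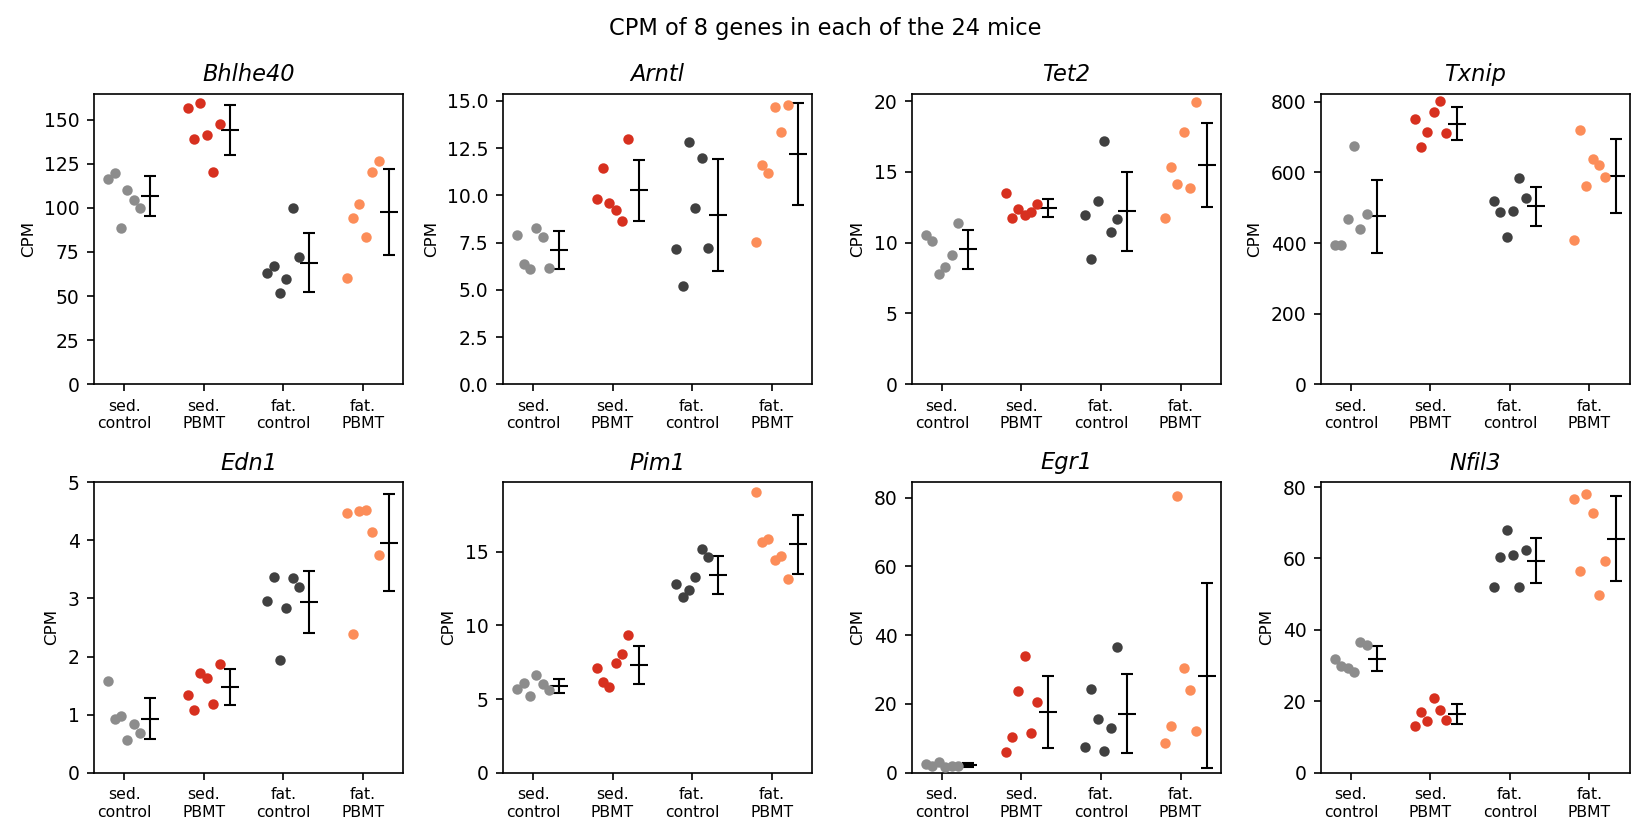
CPM of Bhlhe40, Arntl, Tet2, Txnip, Edn1, Pim1, Egr1 and Nfil3 (vertical axes, from 0) in the 24 mice; each point is a mouse, and the bar beside each group of 6 is its mean with the SD. PBMT mice sit higher in both states for Bhlhe40, with overlap in the fatigued state, whereas Egr1 and Nfil3 separate PBMT from control mice only among sedentary mice; Egr1 differed between states at an adjusted p of 0.946 and Nfil3 at 0.00370 (edgeR).

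Clock genes were among the lists with several members at a small p. Of 20 listed clock genes 19 were tested, and 6 were higher and 2 lower at an unadjusted edgeR p under 0.05 on average, with 7 above 0 and 6 under 0 in both states. For this and every list below, the shares over all genes tested to set beside such counts are 1.85% higher and 1.78% lower at that p, and 24% above 0 and 24.1% under 0 in both states. State medians of the lists rested on few mice: over the 40 lists with at least 3 tested genes, nuclear-encoded subunits of cytochrome c oxidase counted as a list, leaving out a single mouse changed the sign of the sedentary median in 18 and of the fatigued median in 22. All 5 tested activators had average estimates above 0 (median 0.23 over both states, 0.35 in sedentary and 0.12 in fatigued mice), and 4 of them were above 0 in both states. Arntl, which encodes the core activator BMAL1, had 6.11 to 8.28 CPM (median 7.08) in sedentary controls and 8.62 to 13.0 CPM (median 9.68) with PBMT. In fatigued mice it had 5.19 to 12.8 CPM (median 8.29) in controls and 7.55 to 14.8 CPM (median 12.5) with PBMT. The sedentary groups were apart and the fatigued groups overlapped, with 3 of 6 PBMT mice above every control (edgeR log2 fold change 0.49, standard error 0.12, adjusted p = 0.988, and exact permutation within state p = 0.00158). Npas2, a partner of BMAL1 at low level here, had an average log2 fold change of 1.06, with 1.32 in sedentary and 0.85 in fatigued mice; it was 0.77 with both stand-apart mice left out, and its fatigued value was 0.45 without fatigued PBMT 5 and 1.45 without fatigued control 3. Clock, the other partner, had 0.23 on average, 0.35 in sedentary and 0.12 in fatigued mice; Clock and Dbp were named after their values were seen. The 4 output factors, which include Dbp, Tef and Nfil3, all had average estimates under 0 (median -0.14 over both states, -0.19 in sedentary and -0.021 in fatigued mice), and Dbp was at -0.28 and -0.18 in the 2 states. Among the 10 repressors 3 were above 0 on average and 7 under 0. Over the whole list the median was -0.037 over both states, -0.019 in sedentary and 0.024 in fatigued mice, beside -0.00060, -0.0087 and 0.0044 over all genes tested. The average median of the list was under 0 in all 15 alternatives, scaling included (from -0.041 to -0.014). Apart from the fit without both stand-apart mice, the alternatives use the same mice. For this and every list below, a sign kept in them therefore speaks to the processing and not to the choice of mice. The time of day of dissection is not in the labels, and its part in these values was not tested.

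Nfil3, a repressor of the clock output genes, showed where an average hides unequal effects. Sedentary levels were 28.2 to 36.5 CPM (median 30.8) in controls and 13.1 to 20.9 CPM (median 15.9) with PBMT, without overlap, and fatigued levels were 52.0 to 68.1 CPM (median 60.7) and 49.7 to 78.2 CPM (median 66.1), overlapping. Its average log2 fold change of -0.40 (edgeR adjusted p = 0.988) came from -0.97 in sedentary and 0.14 in fatigued mice. The fatigued value was 0.087 without fatigued PBMT 3 and 0.21 without fatigued PBMT 5. The difference between states was 1.11 (edgeR adjusted p = 0.00370), and Nfil3 was the 1 gene of 15108 (0.00662%) whose PBMT effect differed between states after adjustment. Smad3, a signal transducer of TGF-beta, averaged 0.0085 from opposite values of -0.20 in sedentary and 0.22 in fatigued mice, a difference between states that did not pass (edgeR adjusted p = 0.946). Its average lay under 0 by limma voom and with the transcript length trend removed. Trp63, a transcription factor gene of the p53 family, had 5 of 6 fatigued and 0 of 6 sedentary PBMT mice above every control, with 0.14 in sedentary and 0.89 in fatigued mice (difference, edgeR adjusted p = 0.946). The sedentary value of Trp63 was 0.067 without sedentary PBMT 6 and 0.25 without sedentary control 6.

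Immediate early genes, which are transcribed within minutes of a stimulus, had mixed directions. Of 30 tested, 19 were above 0 and 11 under 0 on average, 3 were higher and 1 lower at an unadjusted edgeR p under 0.05, and 13 were above 0 in both states, 4 under 0 in both and 13 opposite. The list median was 0.078 over both states, 0.043 in sedentary and 0.19 in fatigued mice, and on average it stayed above 0 in all 15 alternatives (from 0.041 to 0.11), while leaving out a single mouse gave values down to -0.0061. The sedentary median was -0.11 without sedentary PBMT 4 and the fatigued median 0.013 without fatigued PBMT 3. Egr1, a zinc finger factor, had an average log2 fold change of 1.74, from 2.97 in sedentary and 0.71 in fatigued mice (edgeR average adjusted p = 0.988). Its fatigued PBMT mice ran from 8.64 to 80.6 CPM and overlapped their controls in all but 1 mouse, PBMT 3; without it the fatigued value was 0.046. Fos had 1.19 from 1.99 in sedentary and 0.47 in fatigued mice, the latter turning to -0.25 without PBMT 3, and Cited2, a coregulator gene, 0.40 from 0.65 in sedentary and 0.16 in fatigued mice; the fatigued value of Cited2 was 0.043 with both stand-apart mice left out. Nr4a1, an orphan nuclear receptor gene induced by contraction, was lower: 164 to 332 CPM (median 198) against 78.6 to 149.6 CPM (median 124) in sedentary mice, and 192 to 458 CPM (median 368) against 143 to 436 CPM (median 306) in fatigued mice. All 6 sedentary and 1 of 6 fatigued PBMT mice lay under every control (edgeR log2 fold change -0.53, standard error 0.18, adjusted p = 0.988, and exact permutation within state p = 0.00784), and without the stand-apart mice the fatigued value moved from -0.21 to -0.061. Junb, another subunit of AP-1, was nearly equal in the states at 0.48 and 0.45, but with an unadjusted edgeR p of 0.0651; it was named after its values were seen.

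Of 9 tested MAP kinase phosphatases, which switch off ERK, JNK or p38, 6 were above 0 on average and 3 under 0, with 3 higher and 1 lower at an unadjusted edgeR p under 0.05. The list median was 0.086 over both states, 0.21 in sedentary and 0.090 in fatigued mice, above 0 on average in all 15 alternatives (from 0.055 to 0.12); the fatigued median was 0.029 with both stand-apart mice left out. Dusp4 had 0.903 to 1.57 CPM (median 1.36) in sedentary controls and 1.30 to 2.33 CPM (median 2.10) with PBMT, and 2.66 to 3.65 CPM (median 2.80) and 2.89 to 5.96 CPM (median 3.11) in the fatigued groups. Above every control lay 5 of 6 sedentary and 2 of 6 fatigued PBMT mice (edgeR log2 fold change 0.48, standard error 0.13, adjusted p = 0.988, and exact permutation within state p = 0.00201). Dusp4 had 0.61 in sedentary and 0.37 in fatigued mice, and 0.20 in fatigued mice without fatigued PBMT 3. Dusp2 leaned the other way, with 0 of 6 sedentary and 5 of 6 fatigued PBMT mice above every control and 0.39 in sedentary and 0.96 in fatigued mice. With both stand-apart mice left out, Dusp2 stood at 0.75 in sedentary and 0.89 in fatigued mice, and Dusp4 at 0.58 and 0.42. Dusp10 had 1.05 in sedentary and 0.16 in fatigued mice, a difference between states that did not pass (edgeR adjusted p = 0.946), and its fatigued value was -0.15 with both stand-apart mice left out. Dusp7 was the lower member at -0.16 on average. In the YAP-TEAD list 11 of 18 genes were above 0 and 7 under 0 (median 0.043 over both states, 0.092 in sedentary and 0.048 in fatigued mice; from 0.034 to 0.088 on average over the alternatives), with 8 of its 9 factors but 3 of its 9 targets above 0 (median of the targets -0.022 over both states, -0.054 in sedentary and 0.10 in fatigued mice). Tead4, which binds YAP, had 0.19 in sedentary and 0.28 in fatigued mice, with 4 of 6 and 5 of 6 PBMT mice above every control, while the target gene Ccn1 had 1.13 in sedentary and 0.10 in fatigued mice. Its fatigued value was 0.42 without fatigued control 6 and -0.045 without fatigued PBMT 3.

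Genes of fuel choice pointed in different directions. Txnip, which encodes an inhibitor of glucose uptake and of thioredoxin, had the smallest average p. Its sedentary levels were 393 to 674 CPM (median 455) in controls and 672 to 802 CPM (median 733) with PBMT, and its fatigued levels 417 to 585 CPM (median 506) and 407 to 720.0 CPM (median 606). The highest sedentary control was stand-apart mouse 4; 5 of 6 sedentary and 4 of 6 fatigued PBMT mice exceeded every control of their state. The average was 1.35-fold (edgeR log2 fold change 0.43, standard error 0.092, adjusted p = 0.649, and exact permutation within state p = 0.000665), from 0.63 in sedentary and 0.22 in fatigued mice; it was 0.48 with both stand-apart mice left out (edgeR adjusted p = 0.203). Pfkfb3, whose enzyme makes the activator of phosphofructokinase, had 215 to 325 CPM (median 261) and 206 to 538 CPM (median 417) in sedentary controls and PBMT mice, and 54.6 to 100.3 CPM (median 69.1) and 66.7 to 161 CPM (median 92.8) in the fatigued groups. The groups overlapped in both states (edgeR log2 fold change 0.50, standard error 0.15, adjusted p = 0.988, and exact permutation within state p = 0.00967), with 0.58 in sedentary and 0.41 in fatigued mice; the fatigued value was 0.21 without fatigued PBMT 2. Ucp3, a mitochondrial carrier gene induced by fatty acids, was lower in the average (edgeR log2 fold change -0.52, standard error 0.17, adjusted p = 0.988, and exact permutation within state p = 0.00448), from -0.84 in sedentary and -0.20 in fatigued mice. Under the lowest control lay 5 of 6 sedentary and 3 of 6 fatigued PBMT mice, and the fatigued value of Ucp3 was -0.094 with both stand-apart mice left out.

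The lists around these genes had average medians near 0, in several of them from opposite signs in the 2 states. For fatty acid oxidation, glucocorticoid response and Klf family genes, the opposite signs of the state medians held when any single mouse was left out. The difference of list medians between states was not tested. Of 23 glycolysis genes 9 were above 0 and 14 under 0, with 1 higher at an unadjusted edgeR p under 0.05 and a median of -0.021 over both states, -0.061 in sedentary and -0.055 in fatigued mice; this average was above 0 by limma voom and with both stand-apart mice left out (0.00044). For fatty acid oxidation, 15 of 22 genes were under 0 and 0 had an unadjusted edgeR p under 0.05 (median -0.031 over both states, -0.12 in sedentary and 0.055 in fatigued mice), under 0 on average in all 15 alternatives. Among 19 FOXO and atrophy genes 12 were above 0, and the 4 FOXO factors themselves were all under 0 (median -0.13 over both states, -0.25 in sedentary and -0.076 in fatigued mice). The list median of 0.022 stayed above 0 in all 15 alternatives but not in 2 of the 24 fits without a single mouse. State medians of the whole list were -0.012 in sedentary and 0.040 in fatigued mice. In the acute exercise response 8 of 17 were above 0 and Ucp3 was the 1 gene lower at an unadjusted p under 0.05 in edgeR. Its median of -0.011 changed sign with the length or GC trend removed and with both stand-apart mice left out. State medians were -0.022 in sedentary and 0.083 in fatigued mice. Glucocorticoid response genes split 7 to 7, with 0 at an unadjusted edgeR p under 0.05 and medians of 0.0056 over both states, -0.10 in sedentary and 0.12 in fatigued mice; the average changed sign in 6 of 15 alternatives, DESeq2 among them. Of 14 Klf family genes 6 were above 0, and Klf10, a TGF-beta-inducible repressor gene, was the 1 higher at an unadjusted edgeR p under 0.05. Klf10 had 0.45 in sedentary and 0.46 in fatigued mice, the latter being 0.72 without fatigued control 5. The Klf list median was -0.0097 over both states, -0.085 in sedentary and 0.065 in fatigued mice. Its average changed sign with both stand-apart mice left out.

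Nuclear-encoded respiratory chain genes had a nearly uniform direction. Of 65 tested, 62 had an average estimate under 0 and 58 were under 0 in both states, against 24.1% of all genes. Of these, 11 were lower and 0 higher at an unadjusted edgeR p under 0.05, and 0 passed the adjustment. The median was -0.093 over both states, -0.15 in sedentary and -0.045 in fatigued mice, under 0 on average in all 15 alternatives (from -0.10 to -0.073). It was -0.073 with the transcript length trend removed, and -0.078 with both stand-apart mice left out, of which -0.14 in sedentary and -0.014 in fatigued mice. The average and fatigued medians were smaller than the SD between mice of the list's median log2 level, 0.121. The sedentary medians were larger, but not without sedentary PBMT 6 (-0.094) or sedentary control 3 (-0.10). Genes measured in the same mice are not independent observations, so these counts of genes were not tested. The summed level was 26738 ± 2043 and 24319.7 ± 2047 CPM in sedentary controls and PBMT mice, and 22994 ± 936 and 22082 ± 2355 CPM in the fatigued groups (SD, n = 6 each), with overlap in both states. Ndufs3, a subunit of complex I, had 229.7 to 347 CPM (median 256) in sedentary controls and 183 to 247 CPM (median 230.0) with PBMT, and 196 to 221 CPM (median 214) and 171 to 235 CPM (median 200.3) in the fatigued groups. In each state 3 of 6 PBMT mice lay under the lowest control, and 2 of 6 fatigued PBMT mice lay above the highest (edgeR log2 fold change -0.17, standard error 0.067, adjusted p = 0.988, and exact permutation within state p = 0.0167). Ndufs3 without the stand-apart mice had -0.11 on average, -0.19 in sedentary and -0.027 in fatigued mice. Uqcr10 of complex III had -0.26 in sedentary and -0.058 in fatigued mice, and Ndufa5 of complex I -0.31 in sedentary and -0.022 in fatigued mice. Without those 2 mice Uqcr10 had -0.25 and -0.013, and Ndufa5 -0.23 and -0.016. The fatigued value of Ndufa5 turned to 0.015 without fatigued PBMT 4.

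Cytochrome c oxidase has subunits from both genomes, and these had opposite signs. All 13 nuclear-encoded subunit genes had average estimates under 0, 11 of them in both states, and 1 (Cox4i1) was lower at an unadjusted edgeR p under 0.05. Their median was -0.080 over both states, -0.13 in sedentary and -0.039 in fatigued mice, and on average it stayed under 0 in all 15 alternatives (from -0.10 to -0.048). Cox4i1 had -0.15 on average, from -0.24 in sedentary and -0.063 in fatigued mice. With both stand-apart mice left out it had -0.081, from -0.14 in sedentary and -0.022 in fatigued mice. The 3 mitochondrially encoded subunits were above 0 on average, as were 12 of the 13 mitochondrially encoded protein genes (median 0.090 over both states, 0.18 in sedentary and 0.0087 in fatigued mice). That direction rested on sedentary control 4: the summed level of the 13 genes was 25820 CPM in this mouse, where the other sedentary controls had 134414 to 153875 CPM. With both stand-apart mice left out the median was 0.0041, and mt-Co1 moved from 0.090 to 0.0072. Of 77 mitochondrial ribosomal protein genes, 73 were under 0 on average and 44 in both states, with 4 lower at an unadjusted edgeR p under 0.05 (median -0.065 over both states, -0.11 in sedentary and -0.0088 in fatigued mice). Of 79 cytosolic ribosomal protein genes, 70 were under 0 and 38 in both states, with 0 at an unadjusted edgeR p under 0.05 on average (median -0.049 over both states, -0.079 in sedentary and -0.0048 in fatigued mice). Both medians were under 0 in all 15 alternatives, but were -0.040 and -0.023 with the transcript length trend removed. For mitochondrial ribosomal proteins, the fatigued median was -0.0014 with both stand-apart mice left out. Without fatigued PBMT 4 the fatigued medians turned to 0.0077 for mitochondrial and 0.024 for cytosolic ribosomal proteins.

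**Figure D3:**
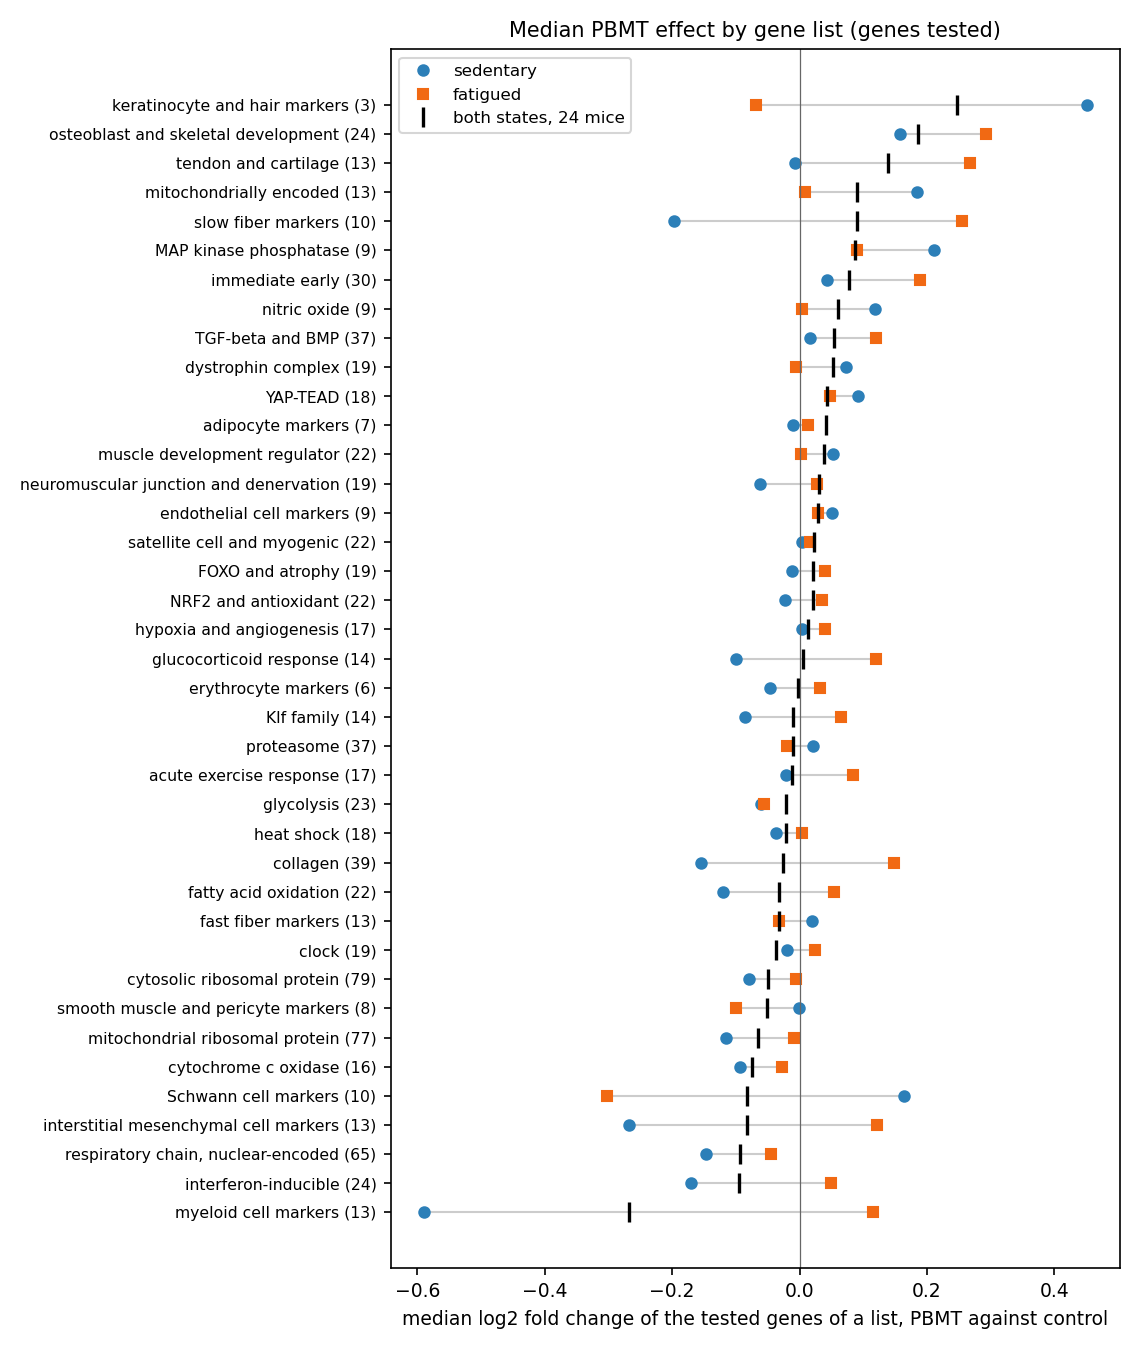
Median log2 fold change (horizontal axis) of the tested genes of each list with at least 3 tested genes, for sedentary mice (circles), fatigued mice (squares) and both states (bars), with the number of genes tested in parentheses. The nuclear-encoded respiratory chain lies under 0 in both states at -0.15 and -0.045, with its average under 0 in every alternative including scaling, whereas the myeloid markers lie at -0.59 and 0.12.

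Genes of stress handling showed little. Of 22 NRF2 and antioxidant genes 13 were above 0 and 9 under 0. At an unadjusted edgeR p under 0.05, 1 was lower, Prdx5, a peroxiredoxin of mitochondria (-0.16 on average). The list median was 0.021 over both states, -0.023 in sedentary and 0.036 in fatigued mice, above 0 on average in all 15 alternatives. This average was 0.0056 with both stand-apart mice left out, and its sign changed in 1 of the 24 fits without a single mouse. Of 18 heat shock genes 8 were above 0, and of 37 proteasome genes 16 were above 0, with medians of -0.022 and -0.010 that each changed sign in 3 of 15 alternatives, limma voom among both. Sedentary and fatigued medians had opposite signs, -0.037 and 0.0038 for heat shock and 0.021 and -0.020 for proteasome genes. Proteasome genes had 1 member higher at an unadjusted edgeR p under 0.05, Psma3, and heat shock genes 0. Among 9 nitric oxide genes 8 were above 0 (median 0.061, 0.00046 with both stand-apart mice left out), and among 17 hypoxia and angiogenesis genes 12 were (median 0.014, with the sign changed in 2 alternatives). Neither had a member at an unadjusted edgeR p under 0.05. Interferon-inducible genes were under 0 in 18 of 24 (median -0.095 over both states, -0.17 in sedentary and 0.050 in fatigued mice), under 0 on average in all 15 alternatives, again with 0 at an unadjusted edgeR p under 0.05. The interferon-inducible medians were under 0 in both states with both stand-apart mice left out (-0.17 over both states, -0.25 in sedentary and -0.030 in fatigued mice).

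Lists around muscle identity had small average medians, with members on both sides of 0. Of 22 muscle development regulators 15 were above 0, and 3 were higher at an unadjusted edgeR p under 0.05: Eya4 (0.19 in sedentary and 0.33 in fatigued mice), Mrtfb and Mef2a. The list median was 0.038 over both states, 0.052 in sedentary and 0.0024 in fatigued mice, above 0 on average in all 15 alternatives. Satellite cell and myogenic genes had 12 of 22 above 0 and 0 at an unadjusted edgeR p under 0.05, with a median of 0.023. Its sign changed on the scale of the permutation test and in 5 of the 24 fits without a single mouse. The dystrophin complex had 15 of 19 above 0 and 0 at an unadjusted edgeR p under 0.05. Its median was 0.052 over both states, 0.073 in sedentary and -0.0055 in fatigued mice (average above 0 in all 15 alternatives). At the neuromuscular junction, Musk, the gene of the receptor kinase that clusters acetylcholine receptors, had 1.54 to 3.32 CPM (median 2.73) and 2.42 to 4.16 CPM (median 3.19) in sedentary controls and PBMT mice, and 4.95 to 10.1 CPM (median 5.88) and 6.46 to 13.7 CPM (median 10.0) in the fatigued groups. In each state 3 of 6 PBMT mice exceeded every control (edgeR log2 fold change 0.50, standard error 0.14, adjusted p = 0.988, and exact permutation within state p = 0.00511). Ache, the gene of acetylcholinesterase, was lower on average at -0.21, from -0.28 in sedentary and -0.15 in fatigued mice, the latter being -0.094 without fatigued control 3. Runx1, which responds to denervation, had 0.18 in sedentary and 0.80 in fatigued mice, the sedentary value being -0.032 without sedentary PBMT 3. Over the 19 junction and denervation genes tested, 10 were above 0 and 9 under 0, and the median of 0.030 changed sign in 2 of 15 alternatives, the replicate block among them. State medians of this list were -0.061 in sedentary and 0.027 in fatigued mice.

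In the TGF-beta and BMP list, 29 of 37 genes were above 0 on average, 13 of them in both states, and 4 were higher at an unadjusted edgeR p under 0.05 with 0 lower. The median was 0.054 over both states, 0.016 in sedentary and 0.12 in fatigued mice, above 0 on average in all 15 alternatives (from 0.037 to 0.057); with both stand-apart mice left out it was 0.072 in sedentary and 0.056 in fatigued mice. Gdf11, a ligand close to myostatin, had 4.29 to 6.24 CPM (median 5.61) in sedentary controls and 6.39 to 10.0 CPM (median 7.51) with PBMT, and 6.58 to 9.91 CPM (median 7.80) and 6.67 to 12.8 CPM (median 8.97) in the fatigued groups. The sedentary groups were apart, and the fatigued groups overlapped in all but 2 PBMT mice (edgeR log2 fold change 0.37, standard error 0.11, adjusted p = 0.988, and exact permutation within state p = 0.00633). Tgfb2, Tgfbr1 and Smad9 were alike in both states, at 0.17 and 0.16, 0.19 and 0.16, and 0.55 and 0.47, with unadjusted edgeR p of 0.0255, 0.0281 and 0.0317. Osteoblast and skeletal development genes were above 0 in 19 of 24, with 6 higher at an unadjusted edgeR p under 0.05 and a median of 0.19 over both states, 0.16 in sedentary and 0.29 in fatigued mice; the average was above 0 in all 15 alternatives (from 0.026 to 0.25), while the sedentary median was -0.051 without sedentary PBMT 6. The stand-apart mouse 5 of the fatigued PBMT group led them: it had Bglap at 8.11 CPM where the others of its group had 0.053 to 0.45, and the list median was 0.12 on average and 0.068 in fatigued mice with both stand-apart mice left out. Bglap and Dmp1, genes of bone matrix, moved from 2.98 and 2.19 to 0.52 and 0.48. Their unadjusted edgeR p moved from 0.00475 and 0.0128 to 0.436 and 0.338, so both left the genes under 0.05. Tendon and cartilage genes were above 0 in 11 of 13 on average and in 5 of 13 in both states, with 0 at an unadjusted edgeR p under 0.05. Their median was 0.14 over both states, -0.0064 in sedentary and 0.27 in fatigued mice. The average median was -0.12 with both stand-apart mice left out. Sox9 of this list had -0.011 in sedentary and 0.59 in fatigued mice (0.94 in fatigued mice without control 6), a difference between states that did not pass (edgeR adjusted p = 0.946). Collagen genes were above 0 in 19 of 39, with 1 higher and 2 lower at an unadjusted edgeR p under 0.05 and a median of -0.025 over both states, -0.15 in sedentary and 0.15 in fatigued mice. The states had the same sign with both stand-apart mice left out (-0.091 over both states, -0.044 in sedentary and -0.11 in fatigued mice). The average median stayed under 0 in all 15 alternatives but not in 14 of the 24 fits without a single mouse. Mrgprg, a gene of a sensory receptor, did not pass the filter on low counts: it reached 1.58 CPM in fatigued PBMT 5 and at most 0.26 CPM in the other mice of that group.

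Markers of other cell types were summed in each mouse to see what else moved with PBMT, and in bulk tissue fewer cells of a type and less RNA per cell cannot be told apart. Over both states, none of the 11 marker sums differed between PBMT and control mice by exact permutation within state (smallest unadjusted p = 0.122 for lymphocytes, adjusted over the 11 sums p at least 0.807). Myeloid markers, led by Lyz2, had the median farthest from 0 among the 10 marker lists with tested genes: 12 of 13 were under 0 on average, 1 of them, Cd163, at an unadjusted edgeR p under 0.05, with medians of -0.27 over both states, -0.59 in sedentary and 0.12 in fatigued mice and an average under 0 in all 15 alternatives. Their sum was 124 ± 37.8 CPM in sedentary controls and 81.4 ± 17.6 CPM with PBMT (SD, n = 6 each, unadjusted exact permutation p = 0.0195). In the fatigued groups it was 119 ± 31.6 and 127 ± 61.3 CPM (SD, n = 6 each, unadjusted exact permutation p = 0.976). These within-state p-values were not adjusted over the 11 sums, and the myeloid list was singled out for its median. In fatigued mice the median was -0.12 with both stand-apart mice left out. Interstitial mesenchymal markers, led by Gsn, were under 0 in 11 of 13 on average but in 1 of 13 in both states (medians -0.082 over both states, -0.27 in sedentary and 0.12 in fatigued mice; average under 0 in all 15 alternatives). Their medians were under 0 in both states with both stand-apart mice left out (-0.21 over both states, -0.33 in sedentary and -0.092 in fatigued mice). The medians of smooth muscle and pericyte, endothelial, adipocyte and erythrocyte markers, led by Rgs5, Cdh5, Fabp4 and Hbb-bs, were -0.051, 0.029, 0.042 and -0.0031, each with its sign changed in at least 1 alternative. The same held for slow and fast fiber markers, at 0.090 and -0.031, and both had opposite medians in sedentary and fatigued mice, -0.20 and 0.25 for slow and 0.019 and -0.032 for fast fibers. Skin was nearly absent: the keratinocyte and hair markers, led by Krt10, summed to 6.71 ± 2.50 and 12.1 ± 13.4 CPM in sedentary controls and PBMT mice (SD, n = 6 each). In fatigued controls and PBMT mice they summed to 5.63 ± 1.49 and 5.03 ± 0.93 CPM (SD, n = 6 each). Of the 14 markers, 1 was at 0 in every mouse and 3 were tested. Their average median of 0.25 was above 0 in all 15 alternatives, but came from 0.45 in sedentary and -0.068 in fatigued mice. Lymphocyte markers, led by Cd4, summed to 1.02 CPM in the highest mouse, and 0 of 10 passed the filter. Whether these cell types had a part in the genes above was not tested.

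The promoters of the genes higher in both states were searched for motifs of the factor families described above. RefSeq promoters (GRCm38.p6) were at hand for 9 of the 12 genes, with 13 starts, and the 250 bases upstream of each start were read on both strands, beside 32851 promoters of 27025 genes. The clock E-box CACGTG stood in 6.02% of all promoters and in 1 of the 9 genes, Pim1. The AP-1 motif TGANTCA stood in 6.75% of promoters and in Leng8, and the ROR element core AGGTCA in 14% and in Slc24a3 and Nhs. The D-box TTATGTAA (0.819%), the cAMP response element TGACGTCA (1.55%) and the glucocorticoid receptor hexamer AGAACA (16.1%) were in none of the 9. No motif was thus shared by more than 2 of the genes. The shares count promoters, while the hits count genes, which could have several starts. Not all other genes reported here were searched. Among those searched, Cited2, Dusp2, Pfkfb3, Ache, Runx1 and Dmp1 also held an E-box. Windows are shown for Pim1, Dusp2 and Pfkfb3, which among the genes searched were those with an E-box that met the both-states rule with both stand-apart mice left out, each 5′ to 3′ on the strand of the gene with the motif in capitals, at chr17:29493009-29493050 (plus strand) for Pim1, chr2:127336032-127336073 (plus strand) for Dusp2 and chr2:11502120-11502161 (minus strand) for Pfkfb3.
Pim1: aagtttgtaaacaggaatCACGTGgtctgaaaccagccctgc
Dusp2: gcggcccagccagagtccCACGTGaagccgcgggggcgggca
Pfkfb3: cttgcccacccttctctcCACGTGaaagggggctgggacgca
The motif starts 58, 109 and 53 bases before the RefSeq transcript start whose promoter was read, and for Pim1 and Pfkfb3 that start lies inside the gene. A match is a description of the letters and not evidence of binding, and RNA counts do not show which factor acted there.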

How the data were processed

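RNA from the TA of 24 mice was sequenced by the authors as polyA-selected, directional, paired-end libraries. The deposited value is a whole-number read count per gene and mouse, with no normalization. The deposited processing notes name Trimmomatic, STAR 2.7.1a, Picard 2.20.4, StringTie 2.0.4, featureCounts 1.6.0, HTSeq and GRCm38, and do not say which tool made the counts. Totals ran from 43271093 to 68726155 counts per mouse.

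All fits used R 4.3.3 and edgeR 4.0.16: filterByExpr by the 4 groups (minimum count 10), TMM, robust quasi-likelihood fits, two-sided tests, and Benjamini-Hochberg adjustment over all 15108 genes. The average effect came from an additive model of state and PBMT, the difference between states from their interaction, and within-state effects from separate fits on the same genes. Exact permutation of PBMT labels within state (924 arrangements per state, 853776 in both) was run on log2 CPM with a prior count of 2. Python 3.11.15 read the files and drew the figures. For each gene the variance of the counts between mice of a group was divided by that expected from counting error, with 20 degrees of freedom. The fits were tested on simulated data with 200 changed genes per size.

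The genes named are those that met the both-states rule (up to 10 in each direction), up to 4 members of each gene list with the smallest average p with its most abundant and any called member, and genes the paper names in its text. Other names are marked as chosen after their values were seen. Of the marker lists, 1 is not reported here. The members and lists were chosen with earlier results of these data known.

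The alternatives tried were a count above 0 as the sole filter, 10 or more counts required in each of the samples, RLE or upper quartile scaling, DESeq2 1.42.0, limma 3.58.1 voom with quality weights, the mean of the within-state contrasts, Stouffer's combination of separate fits, a replicate block, no robust estimation, loess trends on transcript length or GC content removed (span 0.3), and each mouse left out. Both stand-apart mice left out together and mitochondrially encoded genes removed were chosen after seeing the data.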

Additional observations from a re-analysis of the deposited data

Results flagged for a closer look

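In groups of 6 mice, a mouse was singled out where its gap to the nearest other mouse took a larger share of the range of the group than Dixon's 95% critical value allows. Of 244 groups looked at, over the genes, list sums and depth measures reported, 33 held such a mouse, where 12.2 would be expected at 1 in 20. That expectation is for normally distributed values, and the levels were not put on a log scale. Some groups also share genes, such as mt-Co1 and the summed mitochondrially encoded genes. Whether 33 exceeds chance was therefore not tested. Of the 33, 8 were fatigued PBMT 5 and 6 sedentary control 4, the libraries described as standing apart.

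Fatigued PBMT 5 was the highest of its group for Cxcl1 (6.45 CPM), Npas2 (1.35 CPM), Dusp10 (36.1 CPM), Mrgprg (1.58 CPM), Bglap (8.11 CPM), Dmp1 (4.38 CPM), the summed osteoblast and skeletal development genes (3303 CPM) and the summed interstitial mesenchymal cell markers (3178 CPM). Sedentary control 4 was highest for Zhx2 (34.4 CPM), Txnip (674 CPM) and the summed fast fiber markers (221487 CPM), and lowest for mt-Co1 (12667 CPM), the summed mitochondrially encoded genes (25820.3 CPM) and the share of mitochondrially encoded counts (3.25%).

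In the fatigued state, PBMT 3 was highest for Egr1 (80.6 CPM) and Fos (84.7 CPM), PBMT 2 was lowest for Edn1 (2.38 CPM) and Runx1 (3.73 CPM) and highest for Pfkfb3 (160.5 CPM), control 3 was lowest for Edn1 (1.94 CPM) and highest for Npas2 (0.915 CPM), control 6 was highest for Ccn1 (66.4 CPM) and Sox9 (8.49 CPM), and control 5 was lowest for the summed fast fiber markers (182966 CPM). In the sedentary state, PBMT 2 was highest for Ache (33.9 CPM) and the summed adipocyte markers (326 CPM), PBMT 3 for Smad3 (97.9 CPM), and PBMT 4 for the summed keratinocyte and hair markers (38.0 CPM). Sedentary PBMT 6 was highest for Mrgprg (0.0185 CPM, the others at 0) and lowest for Ndufs3 (183 CPM) and the summed respiratory chain genes (20379.5 CPM), and sedentary control 3 was highest for the summed keratinocyte and hair markers (11.7 CPM) and lymphocyte markers (0.715 CPM).

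Nfil3 was singled out because its PBMT effect differed between states by 1.11 on the log2 scale (fatigued minus sedentary, edgeR adjusted p = 0.00370). Without fatigued PBMT 3 the average log2 fold changes were 1.51 for Egr1 and 0.90 for Fos. Without fatigued PBMT 2 Pfkfb3 had 0.41, Edn1 0.60 and Runx1 0.59. Leaving out fatigued control 3 gave 0.49 for Edn1 and 1.39 for Npas2, and leaving out fatigued control 6 gave 0.79 for Ccn1 and 0.47 for Sox9. Ache had -0.26 without sedentary PBMT 2, Smad3 0.0042 without sedentary PBMT 3, and Ndufs3 -0.14 without sedentary PBMT 6. Why these mice differed was not tested.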

How the results depend on the processing

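The average effect gave 0 genes at an adjusted p under 0.05 in edgeR and in the other alternatives except limma voom (2) and the fits without a single mouse (0 to 2). At an unadjusted p under 0.05, no filter beyond a count above 0 gave 974 higher and 964 lower (more genes tested), limma voom 701 and 681, and both stand-apart mice left out, a choice made after seeing the data, 373 and 412. Without a single mouse, 239 to 478 were higher and 186 to 483 lower, the most without fatigued PBMT 1.

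Genes moving the same way in both states numbered 12, all higher. At p under 0.01 in each state there were 0 (0 higher), by limma voom 35 (28 higher, 7 lower), with the replicate block 22 (18 higher, 4 lower), and with both stand-apart mice left out 20 (16 higher, 4 lower). Without a single mouse the number ran from 6 (without fatigued control 2) to 29 (without fatigued PBMT 1), with 5 to 23 higher and 0 to 6 lower; it was 20 without fatigued control 5. The cause was not tested. The labels do not say that replicate numbers mark pairs, so mice were not paired. Over 12 pairs of a PBMT and a control mouse with the same number in a state, the correlation of log2 levels after removing the group means ran from -0.085 to 0.325; it was over 0.1 in 4 pairs, all fatigued, and 3 PBMT mice correlated best with the control of their own number, so whether the numbers pair fatigued mice was not settled.

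The difference between states was fitted by DESeq2, with the replicate block, with both stand-apart mice left out, with mitochondrially encoded genes removed and without each mouse. It gave 1 gene, Nfil3 (adjusted p 2.46e-06 to 0.0220), except without sedentary PBMT 2, where it gave 3, with Rps4l and Hpcal1 added (1 to 3 without a single mouse). Rps4l and Hpcal1 were named after their values were seen.

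Of the named genes, the average of Smad3 was 0.0085 with all mice, -0.030 by limma voom, -0.0078 with the transcript length trend removed, and -0.018 to 0.045 without a single mouse. That of mt-Co1 was 0.090, and -0.0092 to 0.11 without a single mouse, lowest without sedentary control 4. Among these genes, 1655 further values kept their direction and their side of the threshold, and 5 passed it in place of missing it: Txnip and Zhx2 by limma voom, Txnip and Bhlhe40 without fatigued PBMT 1, and Zhx2 without sedentary control 4. Lists of fewer than 15 genes and genes under 1 CPM have values that a single mouse can move, but longer lists and abundant genes were not exempt. Leaving out a single mouse changed the sign of the fatigued median of the 39 collagen genes and of the sedentary value of mt-Co1.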
